A study of Homo sapiens with 2 samples.

Results

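The regions described here are microRNA genes, the short DNA stretches that encode the hairpin precursors of microRNAs, and the ChIP-seq peak summits that lie beside them in Ishikawa cells. All RefSeq GRCh38.p14 genes of biotype miRNA on chromosomes 1 to 22 with a symbol starting MIR were taken, which gave 1793 genes of 56752 genes of every kind on these chromosomes. The hairpin genes were 41 to 180 bp long, with a median of 80 bp. A gene was counted in a library when a called summit lay inside it or within 1000 bp of it. Genes within 1000 bp of either end of a protein-coding gene (213 genes) were kept apart from the remaining 1580, because the ends of coding genes are rich in peaks of many kinds.

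Ishikawa is an established human endometrial cancer cell line. One culture was infected with a control lentivirus and the other with a lentivirus that over-expressed TCF19, a nuclear protein with a forkhead-associated domain and a PHD finger, and both were then selected with puromycin. The same antibody against TCF19 was used for chromatin immunoprecipitation in both, so the control culture shows the antibody's signal at the cells' own TCF19 level. The design asks where TCF19 sits on chromatin and how this differs when its level is raised. Each condition was 1 library with no replicate, so no difference between them could be tested, and the lists do not show the level of TCF19 itself. The control list held 162409 summits on chromosomes 1 to 22 and the overexpression list 107758. A summit's pileup is the number of reads stacked on it, and its median was 12 reads in control and 13 in overexpression. The smallest pileup called at average background was 6 reads in both, and a region with no summit may still carry signal under the calling threshold. Intervals below are 95% intervals, Wilson for shares and exact Poisson for pileups. They cover counting error only, and those of shares also treat genes that share 1 summit as separate.

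MicroRNAs are RNAs that guide Argonaute proteins to messenger RNAs and lower their translation and stability. A primary transcript, often long, is cut in the nucleus by Drosha to release the hairpin, which Dicer then trims in the cytoplasm to the mature microRNA. Target choice rests mainly on the seed, the stretch near the 5′ end of the mature strand, so microRNAs that share a seed form a family and share many targets. Many microRNA genes lie in introns of a host gene and are transcribed from the host's promoter, which can be far from the hairpin. Others have their own promoter, and neighbouring hairpins in a cluster are commonly cut from 1 transcript. In cancer, the miR-17-92 cluster and its relatives are known as growth-promoting, while let-7, miR-34 and miR-15/16 are known as growth-restraining and miR-200 as a guardian of the epithelial state.

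Mature sequences of the families on which the locus results turn are shown first, from RefSeq (GRCh38.p14), with the seed at bases 2 to 8 in capitals. RefSeq hairpin sequences matched 1461 of the 1793 genes. The miR-17 seed was carried both by the cluster on chromosome 13, which had no summit at its hairpins, and by the miR-106b cluster on chromosome 7, which had one in the overexpression library; miR-92a and miR-25, from the same pair of clusters, share another seed.
miR-17-5p: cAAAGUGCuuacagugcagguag
miR-20a-5p: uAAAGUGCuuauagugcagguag
miR-106b-5p: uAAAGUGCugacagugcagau
miR-93-5p: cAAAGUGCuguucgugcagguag
miR-92a-3p: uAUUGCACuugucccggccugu
miR-25-3p: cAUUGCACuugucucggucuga

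The miR-34 and miR-449 genes, all of which had a control summit, share the core of their seed, read from the same base in miR-34a, miR-449a and miR-449b and shifted by 1 base in miR-34b and miR-449c.
miR-34a-5p: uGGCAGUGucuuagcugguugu
miR-34b-5p: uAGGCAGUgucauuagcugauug
miR-449a: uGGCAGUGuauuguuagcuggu
miR-449b-5p: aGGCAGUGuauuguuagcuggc
miR-449c-5p: uAGGCAGUguauugcuagcggcugu

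The cluster of miR-23a, miR-27a and miR-24-2 had a summit in control and its seed relatives miR-23b and miR-27b had none in either library; let-7e with let-7i, miR-125a with miR-125b, and miR-130b with miR-301b are further seed-sharing genes with summits.
miR-23a-3p: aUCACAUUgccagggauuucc
miR-23b-3p: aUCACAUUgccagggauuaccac
miR-27a-3p: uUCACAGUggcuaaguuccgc
miR-27b-3p: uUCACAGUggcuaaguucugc
miR-24-3p: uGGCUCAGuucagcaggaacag
let-7e-5p: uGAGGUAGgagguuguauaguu
let-7i-5p: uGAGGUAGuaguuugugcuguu
miR-125a-5p: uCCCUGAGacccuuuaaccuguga
miR-125b-5p: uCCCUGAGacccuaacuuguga
miR-130b-3p: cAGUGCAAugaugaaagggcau
miR-301b-3p: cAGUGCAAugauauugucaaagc

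Of the 1793 microRNA genes, 325 (18.1%, interval 16.4% to 20.0%) had a control summit. In the overexpression library, 336 genes (18.7%, 17.0% to 20.6%) had one. Both libraries placed a summit at 204 genes, overexpression alone at 132 and control alone at 121, and neither at 1336. As a background, chromosomes 1 to 22 were cut into 1319594 tiles of the same window, and 11.2% of tiles held a summit in control and 7.25% in overexpression. Genes that share a locus can share a summit. After merging genes within 10000 bp of each other into 1521 loci, 299 loci had a control summit and 309 an overexpression summit.

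MicroRNA genes at coding gene ends carried summits most often, and more of them did so in the overexpression library. A summit was present at 89 of 213 (41.8%, 35.4% to 48.5%) in control and at 115 (54.0%, 47.3% to 60.6%) in overexpression. Tiles at coding ends held one in 28.8% of cases in control and 33.3% in overexpression, so both gene shares lay above those of tiles with the same position. The calls were made in both libraries at 74 of these genes (34.7%, tiles 22.6%), in overexpression alone at 41 (19.2%, tiles 10.7%) and in control alone at 15 (7.04%, tiles 6.25%).

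The 1580 genes away from coding ends had nearly equal counts in the 2 libraries. A summit was present at 236 (14.9%, 13.3% to 16.8%) in control and at 221 (14.0%, 12.4% to 15.8%) in overexpression. The tile background there was 10.7% in control and 6.55% in overexpression, which put the genes at 1.39 times the tiles in control and 2.14 times in overexpression. Both libraries called 130 of these genes (8.23%, tiles 4.39%). Overexpression alone called 91 (5.76%, tiles 2.16%), and control alone called 106 (6.71%, tiles 6.34%), so the share of genes called in control alone was close to that of tiles.

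The 2 lists differ in length. To make them equal, only the control list was cut, by fold, so overexpression calls could not change under that setting. With only the 107758 highest-fold control summits, so that both lists were equally long, 131 genes away from coding ends kept a control summit (8.29%, 7.03% to 9.75%, tiles 7.37%) against the same 221 in overexpression. When summits whose local background exceeded 3 times the genome average were left out, a choice made after seeing the data, the counts away from coding ends were 178 in control and 148 in overexpression, at 1.15 and 1.65 times the tiles. At coding ends with equal list lengths, 43 genes in control (20.2%, tiles 17.3%) and 115 in overexpression (54.0%, tiles 33.3%) remained. The limit on local background left 66 in control (31.0%, tiles 24.0%) and 71 in overexpression (33.3%, tiles 25.4%), at 1.29 and 1.31 times the tiles.

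Genes near the end of a long noncoding RNA (lncRNA) gene were read apart, since many primary microRNA transcripts are annotated as lncRNA. Of 103 genes within 1000 bp of a lncRNA end and of no coding end, 29 (28.2%, 20.4% to 37.5%) had a summit in each library, and 26 of them were the same genes. Tiles of this kind held a summit in 15.3% of cases in control and 12.5% in overexpression. Of the 1477 genes near neither kind of end, 207 (14.0%, 12.3% to 15.9%) had a control summit and 192 (13.0%, 11.4% to 14.8%) an overexpression summit, against 10.6% and 6.40% of tiles.

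**Figure D1:**
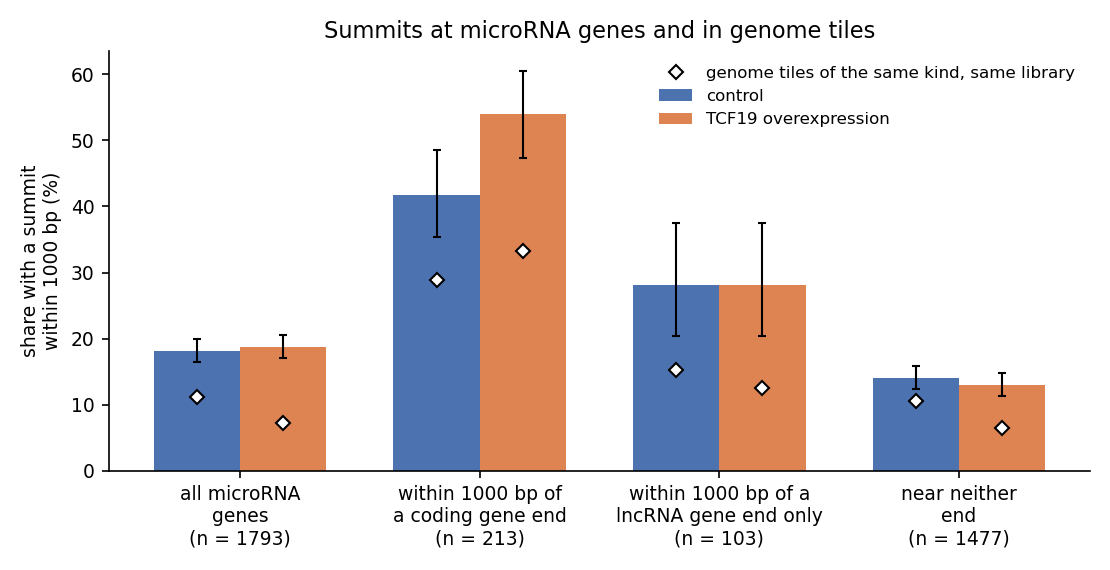
Share of microRNA genes with a summit within 1000 bp (bars, percent, with Wilson 95% intervals) in control and TCF19 overexpression, for all genes and by their distance from coding and lncRNA gene ends; diamonds give the share of genome tiles of the same kind in the same library. Bars reach 41.8% and 54.0% at coding ends and fall to 14.0% and 13.0% near neither end, and every bar stands above its diamond.

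Other short noncoding RNA genes were read in the same way. Away from coding ends, 131 of 1070 small nucleolar RNA genes (12.2%) had a control summit and 78 (7.29%) an overexpression summit, shares close to those of tiles. Transfer RNA genes, which RNA polymerase III transcribes, had 90 of 384 (23.4%) and 113 (29.4%) in the same position. MicroRNA genes lay between these classes in both libraries, at 14.9% and 14.0%.

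Summits were densest right at the hairpins, with distance measured here from the midpoint of each hairpin gene. Around the 213 genes at coding ends, density within 500 bp was 315 summits per 1000 kb in control and 479 in overexpression, and from 500 to 1000 bp it was 225 and 291. Between 1000 and 2000 bp it fell to 72.8 and 103. On the upstream side of these hairpins, density within 500 bp was 352 in control and 571 in overexpression, against 253 and 385 downstream. Around the other 1580 genes the rise was smaller, with 93.7 and 92.4 within 500 bp against 68.4 and 62.0 from 500 to 1000 bp. There the upstream and downstream densities differed little, at 90.7 and 98.5 in control and at 87.6 and 105 in overexpression.

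**Figure D2:**
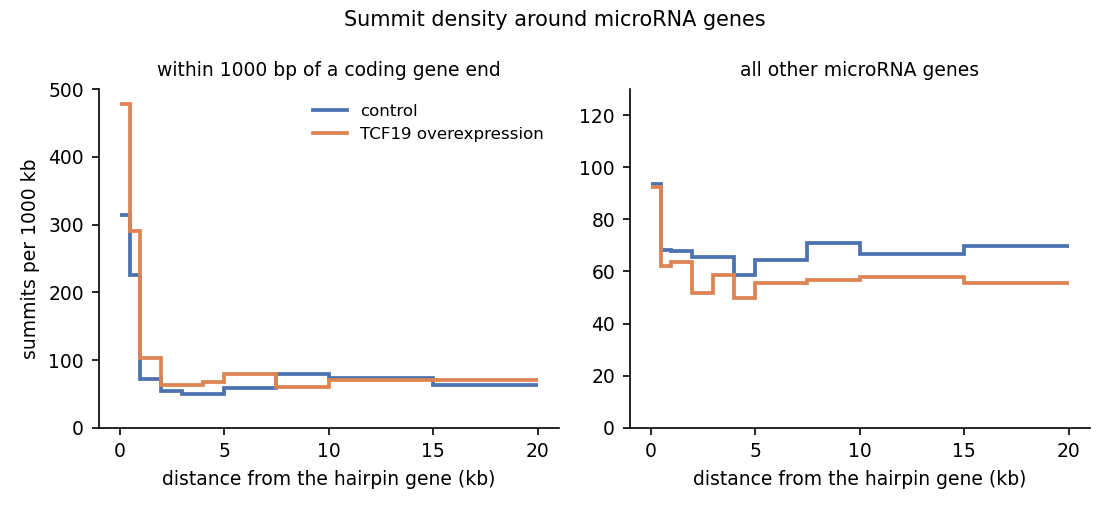
Summits per 1000 kb (vertical axis, with a different range in each panel) against distance from the hairpin gene's midpoint in kb, in both libraries. Genes at coding ends are on the left and all others on the right. Density in the nearest 500 bp reaches 315 and 479 at coding ends, and 93.7 and 92.4 elsewhere, and flattens within a few kb.

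The 325 control genes were served by 353 distinct summits with a median pileup of 14 reads, and the 336 overexpression genes by 386 summits with a median of 16. Of these, 27 control and 34 overexpression summits lay inside a hairpin gene itself. Summits of the 2 libraries within 100 bp of each other were paired, and pileups were compared as a log2 ratio of overexpression to control after dividing each by its library's average background (1.58 reads in control, 1.43 in overexpression). At 103 pairs beside microRNA genes the median log2 ratio was 0.20, with 69 above 0 (67.0%). At all 39489 pairs it was 0.15, with 58.8% above 0. The 30 pairs at microRNA genes near coding ends had a median of 0.37, with 25 above 0 (83.3%). All pairs at coding ends had 0.34, with 78.4% above 0. The 73 pairs elsewhere had 0.15, where all pairs away from coding ends had 0.06. Pileup intervals were fully apart, with overexpression higher, at 1 pair beside microRNA genes, against 0.337% of all pairs, and with control higher at 0 pairs, against 0.043%. That pair, named after its values were seen, was at MIR3678 near a coding gene end on chromosome 17, with 14 reads in control and 32 in overexpression (log2 ratio 1.34).

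Hairpin base composition moved with the calls. Among genes away from coding ends with a RefSeq hairpin sequence, a control summit was present at 20 of 233 hairpins with up to 40% GC (8.6%) and at 21 of 78 hairpins over 70% GC (26.9%). In the overexpression library the same classes gave 13 (5.6%) and 28 (35.9%). The classes between them gave 47 of 373 and 32 (40 to 50% GC), 72 of 380 and 65 (50 to 60% GC), and 35 of 215 and 50 (60 to 70% GC) in control and overexpression. Control counts were the higher ones up to 60% GC and overexpression counts above it. Near coding ends, hairpins over 70% GC had 25 of 51 in control (49.0%) and 35 (68.6%) in overexpression. The GC of fragments in each library was not analysed here, and its part in these shares was not tested.

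**Figure D3:**
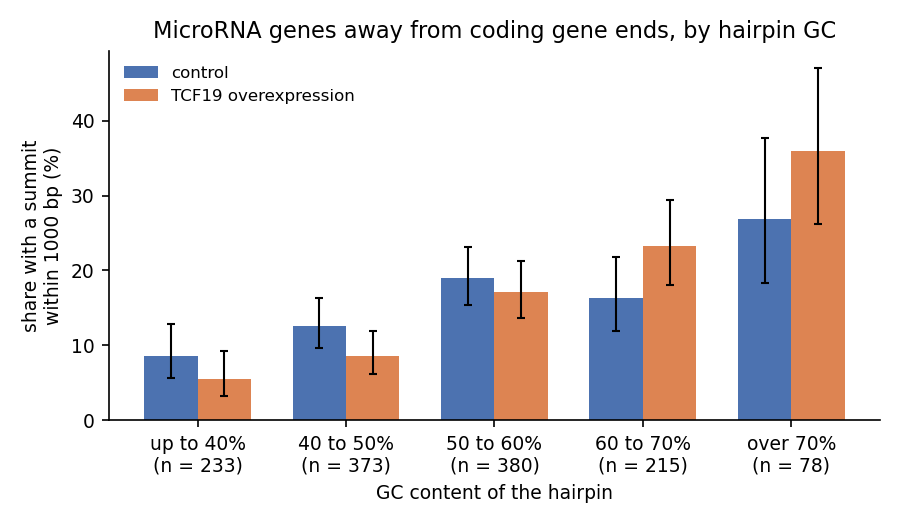
Share of microRNA genes away from coding ends with a summit within 1000 bp (percent, Wilson 95% intervals) by GC content of the hairpin, in control and TCF19 overexpression. Shares climb from 8.6% and 5.6% in the class of lowest GC to 26.9% and 35.9% in the class of highest GC.

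A set of 134 microRNA genes with a known link to cancer was read by family. Of these, 28 (20.9%, 14.9% to 28.5%) had a summit in control and 26 (19.4%, 13.6% to 26.9%) in overexpression, shares close to those of all microRNA genes (18.1% and 18.7%). Both libraries called 17, control alone 11 and overexpression alone 9, and 97 had no summit in either. With summits on a local background above 3 times the average left out, 16 were called in control and 17 in overexpression. Of all 1793 microRNA genes, 244 and 219 were called under this limit. Loci without a call in either library under this limit included MIR10B, MIR191 with MIR425, MIR26A2, MIR193A and the miR-23a and let-7e clusters. With equal list lengths, which cut only the control list, 12 were called in control against 26 in overexpression. Of all 1793 microRNA genes, 174 and 336 were called.

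The growth-promoting miR-17 family split by cluster. In the cluster of miR-106b, miR-93 and miR-25, inside an intron of the replication helicase gene MCM7, 1 overexpression summit of 16 reads (9.15 to 26.0) lay at chr7:100094028, inside the MIR106B hairpin gene (chr7:100093993-100094074, minus strand). It was within 1000 bp of all 3 genes, and no control summit was. With a window of 2000 bp a control summit also reached MIR106B and MIR93. The 6 hairpin genes of the miR-17-92 cluster on chromosome 13, of which MIR17, MIR20A and MIR92A1 share a seed with the miR-106b cluster, had no summit in either library, and the nearest to MIR17 were 1697 bp away in control and 2011 bp in overexpression. The MIR106B hairpin is shown with the 11 bases centred on the summit in capitals; the summit is base 47 of 82.
MIR106B hairpin: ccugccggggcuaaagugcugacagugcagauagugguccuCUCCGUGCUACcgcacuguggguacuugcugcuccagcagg

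The 6 genes of the miR-34 and miR-449 family, known as targets of p53 or as brakes on the cell cycle, all had a control summit and 3 of them an overexpression summit, where 18.1% and 18.7% of all microRNA genes did. This order depends on the settings: with equal list lengths, MIR34B and MIR34C alone kept a control summit. That setting cut only the control list, by fold, so the 3 overexpression calls could not change. At MIR34A (chr1:9151668-9151777), inside the lncRNA gene MIR34AHG, the summit held 20 reads (12.2 to 30.9) in control and 15 (8.40 to 24.7) in overexpression, 149 and 191 bp from the hairpin's centre. MIR34B and MIR34C on chromosome 11 shared a summit of 24 reads (15.4 to 35.7) in control and of 15 reads (8.40 to 24.7) in overexpression. Control was the higher library at both loci, and the intervals overlapped; the control summit of MIR34A lay on a local background of 3.2 times the average. The miR-449 genes, in the coding gene CDC20B on chromosome 5, had 2 control summits of 8 reads each (3.45 to 15.8) and no overexpression summit. A pileup of 8 is close to the smallest called, and with a window of 500 bp only MIR449A stayed within reach.

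The cluster of MIR23A, MIR27A and MIR24-2 on chromosome 19, which acts in cell survival and differentiation, had 1 control summit of 22 reads (13.8 to 33.3) at chr19:13836689 and none in overexpression. Its local background was 5.0 times the control average, and it was lost among summits with a background of at most 3 times the average and with equal list lengths. The miR-130b and miR-301b genes on chromosome 22 had 1 overexpression summit of 15 reads (8.40 to 24.7) and none in control. MIR191 and MIR425, in the coding gene DALRD3, shared a summit of 22 reads in control and had 2 summits, of 19 and 17 reads, in overexpression, all on a background above 5 times the average. MIR10B, between genes of the HOXD cluster, had 15 reads in control and 19 in overexpression at summits on opposite sides of the hairpin. For MIR21, a microRNA commonly raised in tumours, the nearest summit was 1232 bp away in control and 6962 bp in overexpression.

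MIR205, an epithelial microRNA on chromosome 1, had a control summit of 10 reads (4.80 to 18.4) inside its hairpin gene (chr1:209432133-209432242, plus strand) and an overexpression summit of 11 reads (5.49 to 19.7) just past its far end, 123 bp from the hairpin's centre. The 2 pileups were nearly equal. The hairpin is shown with the 11 bases centred on the control summit in capitals; they overlap the 5′ end of mature miR-205-5p.
MIR205 hairpin: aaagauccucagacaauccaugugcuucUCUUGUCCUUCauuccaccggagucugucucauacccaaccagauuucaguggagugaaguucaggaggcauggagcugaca

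Of all microRNA genes, 74.5% had no summit in either library, and the other growth-restraining families are given beside that share. Of 10 let-7 genes, MIRLET7E and MIRLET7I had a summit in both libraries (20%, near the share of all microRNA genes) and 8 had none in either. None of the 6 miR-15 and miR-16 genes, 5 miR-200 genes, 4 miR-29 genes and 6 miR-181 genes had a summit in either library. The nearest summits to MIR200B, MIR200A and MIR429, which keep ZEB factors in check, were 56371 to 58272 bp away in control and 20951 to 22840 bp in overexpression. In the miR-30 family, MIR30C1 alone was called, with 9 reads in both libraries.

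The let-7e locus holds MIR99B, MIRLET7E and MIR125A, which are cut from 1 transcript, on chromosome 19. It had a control summit of 18 reads (10.7 to 28.4) and an overexpression summit of 19 (11.4 to 29.7), at separate places. The control summit lay downstream of MIR125A and the overexpression summit between MIR99B and MIRLET7E, so both libraries marked the cluster at different places. MIR125B1 on chromosome 11, whose mature strand has the seed of miR-125a, had a control summit of 14 reads (7.65 to 23.5) and none in overexpression.

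Among 50 other growth-restraining microRNA genes, 9 (18%) had a summit in each library, close to the 18.1% and 18.7% of all microRNA genes, and 5 had one in both: MIR137, MIR152, MIR26A2, MIR218-2 and MIR138-1. MIR138-1, which targets EZH2 and other regulators, had a control pileup of 13 reads (6.92 to 22.2) and an overexpression pileup of 19 (11.4 to 29.7). MIR137 had 22 and 14 reads at its control summits and 17 and 14 in overexpression. Overexpression alone called MIR145 (15 reads), MIR148A (14 and 17 reads), MIR193A (15 and 17 reads) and MIR26A1 (15 reads), the last with its summit inside the hairpin gene. For MIR148A this rests on the window's edge, since a control summit lay 1007 bp away, and for MIR26A1 one lay 1998 bp away; with a window of 2000 bp both genes were called in both libraries. Control alone called MIR101-2 (13 reads), MIR138-2 (13 reads), MIR129-2 (17 reads at each of 2 summits) and MIR7-2 (14 reads). With equal list lengths MIR138-2 and MIR129-2 lost that call, and with a window of 2000 bp MIR129-2 was called in both. MIR138-1 and MIR138-2 give the same mature miR-138-5p.

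**Figure D4:**
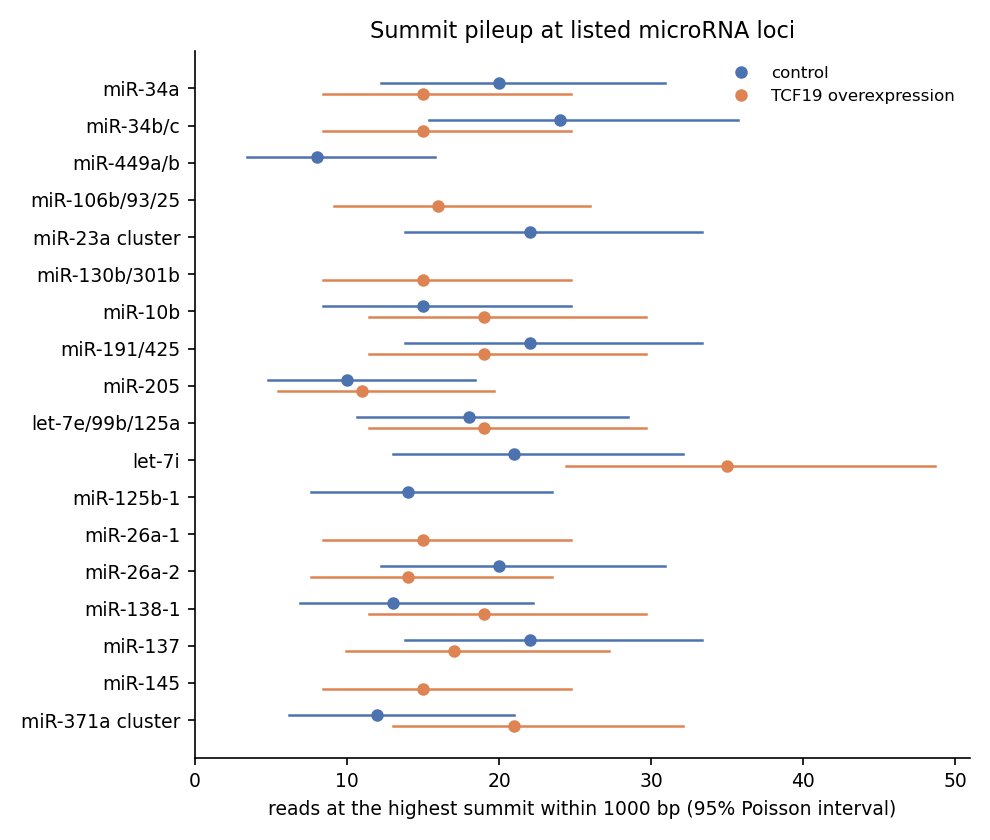
Reads at the highest summit within 1000 bp (horizontal axis, points, with exact Poisson 95% intervals) at 18 listed microRNA loci in control and TCF19 overexpression; a missing point means that no summit was called there. Where both libraries have a point, their intervals overlap, and the highest is let-7i in overexpression, at 35 reads.

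The let-7i promoter drew the highest pileup among the listed cancer-linked loci. MIRLET7I lies 943 bp downstream of the start of its host transcript, the lncRNA MIRLET7IHG, on chromosome 12. In control, summits of 16 reads (9.15 to 26.0) and 21 reads (13.0 to 32.1) lay 58 bp before and 852 bp after that start. In overexpression, summits of 35 reads (24.4 to 48.7), 27 reads (17.8 to 39.3) and 22 reads (13.8 to 33.3) lay 2, 487 and 945 bp after it. The overexpression summit at the start was higher than the control one. Their intervals overlapped narrowly in reads as counted, and lay apart once each was divided by its library's average background. The control summit lay just outside 1000 bp of MIRLET7I, so these summits were not among the pairs beside microRNA genes. The authors' fold, each within its own list, was 4.73 in control and 5.67 in overexpression. The local background there was 3.7 times the average in overexpression. With summits on a background above 3 times the average left out, MIRLET7I was called in control alone.

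The MIRLET7IHG promoter is shown from 250 bases before to 50 bases after the start (chr12:62602493-62602792, plus strand, RefSeq GRCh38.p14). The capitals mark the 61 bases from the control summit to the overexpression summit. The 300 bases hold 27 CG pairs and are 65% G or C, where the median of 35116 RefSeq promoters of this length is 14 CG pairs and 58.7%, and 28.2% of them hold as many CG pairs.
MIRLET7IHG promoter: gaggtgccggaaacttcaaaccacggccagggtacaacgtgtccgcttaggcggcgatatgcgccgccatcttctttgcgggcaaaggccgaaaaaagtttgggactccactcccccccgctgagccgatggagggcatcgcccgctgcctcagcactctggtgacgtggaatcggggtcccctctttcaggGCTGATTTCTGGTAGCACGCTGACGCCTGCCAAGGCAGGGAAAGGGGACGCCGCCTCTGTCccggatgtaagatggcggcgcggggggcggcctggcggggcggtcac

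Because the hairpin can be far from the promoter that drives it, the start sites of host genes on the same strand were read as well. Of 598 coding genes that host a microRNA whose hairpin lies more than 1000 bp from the start, 325 (54.3%, 50.3% to 58.3%) had a summit within 1000 bp of the start in control and 430 (71.9%, 68.2% to 75.4%) in overexpression. Among all 15100 coding genes with a listed start the shares were 51.2% and 63.9%. The overexpression interval of the hosts lies above the share of all coding genes, and the control interval includes it. Both libraries called the start at 308 hosts, overexpression alone at 122 and control alone at 17, a split not counted for all coding genes. These hosts carry 646 microRNA genes at a median of 27605 bp from the start. Of 86 lncRNA hosts, with 138 microRNA genes at a median of 7904 bp, 33 (38.4%, 28.8% to 48.9%) were called in control and 37 (43.0%, 33.1% to 53.6%) in overexpression, against 28.5% and 30.6% of 11145 lncRNA genes.

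**Figure D5:**
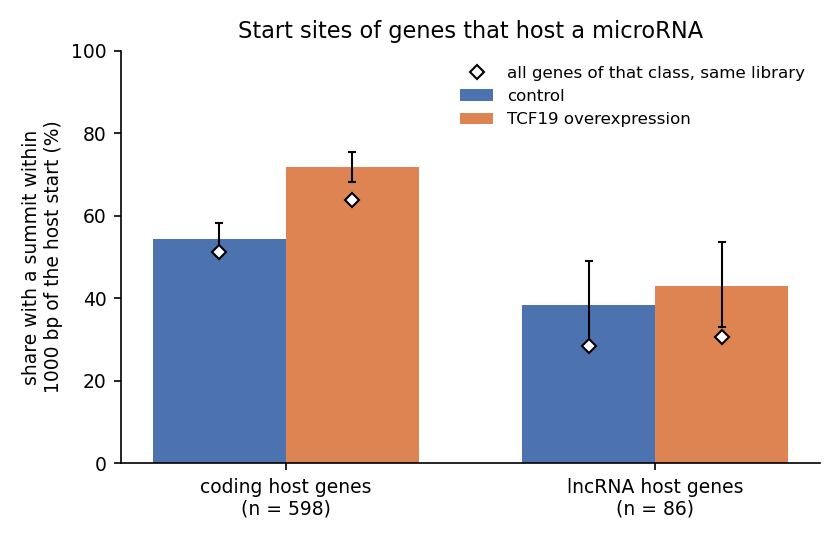
Share of microRNA host genes with a summit within 1000 bp of their start (bars, percent, with Wilson 95% intervals) for coding and lncRNA hosts in control and TCF19 overexpression; diamonds give the share among all genes of that class in the same library. Coding hosts reach 54.3% in control and 71.9% in overexpression, against 51.2% and 63.9% of all coding genes.

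Several cancer-linked clusters without a hairpin summit had one at the host's start. MIR17HG, the host transcript of miR-17-92, starts 2918 bp before MIR17. It had summits of 9 reads (4.12 to 17.1) and 11 reads (5.49 to 19.7) in control and of 20 reads (12.2 to 30.9) and 18 reads (10.7 to 28.4) in overexpression, all between 149 and 907 bp after the start. Both overexpression pileups were above both control ones, and the intervals overlapped. SMC4, a condensin gene that hosts MIR15B and MIR16-2, had 10 reads (4.80 to 18.4) in control against 27 (17.8 to 39.3) in overexpression.

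Other hosts were called at their start in overexpression alone. DLEU2, the host of MIR15A and MIR16-1, had 2 such summits of 18 and 17 reads. MCM7 had 1 of 22 reads (13.8 to 33.3), 439 bp inside the gene. MIR29B2CHG, the host of MIR29C and MIR29B2, had 14 reads. MIR23AHG, the host of the miR-23a cluster, had 25 reads at its start in overexpression alone, while its hairpins had a summit in control alone. MIRLET7A1HG, the host of MIRLET7A1, MIRLET7F1 and MIRLET7D, had 7 reads in control and 15 and 22 reads in overexpression. At MIR34AHG the start had 18 reads in control and 17 in overexpression, nearly level, as at MIR34A itself. CDC20B had 8 reads in control alone, from the same summit that counted for MIR449C. Some hosts of other listed genes also went the other way. PDE2A, the host of MIR139, was called in control alone (15 reads). Control was the higher library at MIR3142HG, the host of MIR146A (24 against 11 reads), and at MIR7-3HG, the host of MIR7-3 (18 against 13), with overlapping intervals. Of all hosts, overexpression alone called 122 coding and 9 lncRNA starts, and control alone 17 and 5. That split was not counted for all genes, whose starts were also called more often in overexpression. All coding genes had 51.2% in control and 63.9% in overexpression, and all lncRNA genes 28.5% and 30.6%.

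MicroRNA genes tied to other tissues were read as a comparison; a peak says nothing by itself of expression, and 18.1% of all microRNA genes had a summit in control and 18.7% in overexpression. The liver gene MIR122 had no summit within 1000 bp. In the placental cluster on chromosome 19, 1 of 46 genes (MIR524, 11 reads) had a control summit and none an overexpression summit. The imprinted cluster on chromosome 14 had 5 of 51 in control (MIR337, MIR665, MIR494, MIR1193 and MIR655, at 3 summits of 18, 18 and 14 reads) and 1 in overexpression (MIR1185-2, 15 reads). Of 9 muscle genes, MIR206 and MIR208A (22.2%) were called in control alone, and of 6 blood genes MIR150 (16.7%) in both libraries, counts too small to set apart from those shares. Of 6 neuronal genes, 4 had a control summit and 2, MIR9-1 and MIR9-2, an overexpression summit. MIR9-1 had 17 reads at its highest summit in both libraries. The neuronal count is small as well, and its order depends on the settings. With equal list lengths MIR9-1 alone kept a control summit, while MIR9-1 and MIR9-2 stayed called in overexpression, whose list was not cut. With a window of 2000 bp MIR124-2 was called in both libraries and MIR124-1 in overexpression alone.

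The stem cell cluster of MIR371A, MIR372 and MIR373 on chromosome 19 had 1 summit that served 3 genes, of 12 reads (6.20 to 21.0) in control and 21 reads (13.0 to 32.1) in overexpression. Overexpression was higher, with overlapping intervals, and the control summit did not reach a −log10 q of 2. The other stem cell cluster, of MIR302 genes and MIR367, had none within 8587 bp. Seeds of the first cluster are in capitals: miR-372 and miR-373 share one, and that of miR-371a differs.
miR-371a-3p: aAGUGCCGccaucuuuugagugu
miR-372-3p: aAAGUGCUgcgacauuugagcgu
miR-373-3p: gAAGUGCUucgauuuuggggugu

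Clusters were counted as loci of more than 1 gene within 10000 bp, of which there were 137 with 409 genes. A summit was present at 27 such loci (19.7%) in control and at 37 (27.0%) in overexpression, where 19.7% and 20.3% of all 1521 loci had one. Of all loci, 1384 hold a single gene, and a cluster offers a wider target, so these shares are not matched for size. The 46-gene placental locus is the longest, and its 1 control summit is 1 for 46 hairpins, whereas 1 summit served the whole of the miR-106b, miR-23a and let-7e loci.

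The highest-fold summits, by the authors' fold within each list, lay mostly at microRNA genes outside the lists of cancer-linked families. Away from coding ends, MIR3648-2 and MIR10396A on the short arm of chromosome 21 shared a summit of 46 reads (33.7 to 61.4, fold 7.28) in control and 69 reads (53.7 to 87.3, fold 13.1) in overexpression. The local background was 3.45 and 3.03 times the average, and the summits lay 958 and 938 bp from MIR3648-2. MIR3648-2 had no matched hairpin sequence, so its copies were not counted. MIR3648-1, named here for the shared name and on the same chromosome, had summits of 27 and 24 reads. MIR6511A2 had 33 and 42 reads at its highest summits and MIR3180-3 had 19 and 26; both hairpin sequences occur more than once in the table, 4 and 2 times, so reads there may belong to another copy. MIR3675 had 29 and 30 reads. In overexpression alone, the highest by fold were MIR9851 (14 reads, inside the hairpin gene), MIR4681 (20), MIR744 (11), MIR6738 (24) and MIR548AA2 (16). In control alone they were MIR1178 (22, inside the hairpin gene), MIR4267 (14, likewise inside), MIR125B1 (14), MIR3163 (15) and MIR4483 (14).

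At coding gene ends, the highest by fold in both libraries were MIR3665, MIR3610, MIR6125, MIR3181 and MIR3913-1, with highest pileups of 12 to 22 reads in control and 15 to 27 in overexpression. MIR6125 had 2 summits of 27 reads in overexpression and summits of 17 and 22 reads in control. In overexpression alone, they were MIR611 (23 reads, at the start of its host TMEM258), MIR5188 (28), MIR1302-9 (11), MIR6812 (18) and MIR5787 (26). In control alone, they were MIR4256 (15), MIR4678 (14), MIR147B (17), MIR1302-11 (10) and MIR5680 (10). Some of these calls rest on the window's edge: an overexpression summit lay 1021 bp from MIR4678 and 1473 bp from MIR5680, and a control summit 1182 bp from MIR5188.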

How the data were processed

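DNA bound in TCF19 ChIP-seq was measured in 2 Ishikawa libraries, control and TCF19 overexpression, grouped by the genotype label. Per the submitters' processing notes, BWA 0.7.12 served as aligner on build hg38 and MACS2 2.1.0 as peak caller. Their settings, the treatment of duplicates and any input: not given in the sources used here. Per summit, each deposited list gives the authors' fold enrichment (a ratio of pileup to local background), a deposited −log10 p-value and −log10 q-value (all q at most 0.05), a deposited score (10 times the −log10 q, cut to a whole number) and the summit's offset from the interval start. Lists were called per library. The authors' fold was used only to rank and filter within a list, and since no input is named, the peaks cannot be taken as input-corrected.

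Whole-read pileups were solved from each summit's deposited −log10 p and fold (fold as pileup plus 1 over background plus 1, Poisson tail, tolerance 0.001 in −log10 p) at 99.9975% of control and 99.9972% of overexpression summits, leaving 4 and 3; the recovery and the counting were tested on simulated data. Average backgrounds were 1.5823 and 1.4286 reads. Read totals were not analysed here. Gene spans came from a RefSeq GRCh38.p14 table and starts from its promoter table (the most upstream start per gene); exons were not separated and no genome was used. Strand and hairpin GC came from the RefSeq microRNA table, which does not cover every gene. Tiles of 2080 bp were kept where a summit lay in the same 1000000 bp. Genes named are those of 18 lists, plus, apart for coding ends and the rest, the 5 of highest fold in both libraries (by the worse rank), in overexpression alone and in control alone; exceptions are stated. The genes, lists and tests were chosen with earlier results of these data known. Python 3.11.15, numpy 2.4.6, scipy 1.17.1 and pandas 2.3.3 were used. Alternatives were the window, a −log10 q of at least 2, equal list lengths, intervals in place of summits, hairpins that occur once, counting by locus and, added after seeing the data, summits at low local background.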

Additional observations from a re-analysis of the deposited data

How the results depend on the processing

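Of 48 recomputed counts, 33 stayed within 1.5 times of the reported one and 15 did not. With a window of 500 bp, genes with a summit were 205 in control and 221 in overexpression, those away from coding ends 143 and 140, and those in control alone 80. With a window of 2000 bp, they were 503 in control, 396 and 365 away from coding ends in control and overexpression, and 188 in control alone. With equal list lengths, control had 174 genes and 131 away from coding ends, overexpression alone had 219 and control alone 57. With summits at low local background, an alternative chosen after seeing the data, overexpression had 219 and overexpression alone 72. The larger count away from coding ends was that of control in 7 of 8 alternatives. It was that of overexpression with equal list lengths (221 against 131), which cut only the control list. The cause of these shifts was not tested. No paired analysis was possible because each group had 1 library. One library per condition means that a call in 1 list alone may reflect depth, threshold or library, which cannot be told apart from the treatment. Pileups of 8 to 30 reads have wide intervals, and most differences between libraries at single loci lie within them.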

Other observations

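On the X chromosome, which the rule leaves out, 9 of 118 microRNA genes had a summit in control and 11 in overexpression, 7 of them in both. No tiles were made for this chromosome, so these counts have no background share. MIR503 and MIR424 shared a summit of 18 reads in control and of 19 in overexpression. At MIR4536-1 and MIR4536-2, listed at the same place, the summits held 17 reads in control and 10 in overexpression, and at MIR4767 they held 12 and 17 reads.

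MIR8078, near the tip of the short arm of chromosome 18 and named here after its values were seen, had a summit of 272 reads in both libraries, the authors' fold being 8.82 in control and 7.05 in overexpression, with the control summit at 112301 and the overexpression summit at 112308, both inside the hairpin gene (112256 to 112339). With 272 reads at these folds, the local background there was far above the library averages of 1.5823 reads in control and 1.4286 in overexpression. Its hairpin is 70.2% G or C.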
